A study of Mus musculus with 19 samples.

Results

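The genes described here supply cells with amino acids and load them onto transfer RNA. They comprise 44 listed genes, chosen by symbol: 15 enzymes of amino acid and one-carbon synthesis, 10 plasma membrane transporters, 17 cytosolic aminoacyl-tRNA synthetases, and the regulators Eif4ebp1 and Sesn2. A probe set assigned to a single gene was found for 42 of them, among 14996 genes tested in all. Pycr1 and Dars had no such probe set and are not analysed here, and all 42 others passed the filter on low signal. The measured members are therefore 14 synthesis enzymes, 10 transporters, 16 synthetases and both regulators.

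The cells were NIH3T3, an immortalised line of mouse fibroblasts. All cells were first held for 48 h in medium with 0.1% serum, and every group except the quiescent one then received basic fibroblast growth factor (FGF) at 50 ng/ml. U0126 blocks MEK, which phosphorylates ERK, and was given at 20 µM. FGF with U0126 from -0.5 h was measured at 1 h on 1 array and at 4, 7 and 12 h on 2 arrays each. FGF with U0126 added late was measured on 1 array at 7 h, after addition at 1 h, and on 1 array at 12 h, after addition at 7 h. FGF alone was measured at 1 h on 1 array and at 4, 7 and 12 h on 2 arrays each. Quiescent cells were measured on 3 arrays, 2 of them from experiment 1, which were averaged. The comparisons ask how ERK signalling shapes transcript levels between quiescence and S phase. Cells given U0126 without FGF were not analysed here. The quiescent arrays precede FGF, so in comparisons with them FGF and time in culture cannot be told apart. The labels do not say that replicates came from separate cultures, so p-values measure the spread between these samples, which may be technical.

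Values are MAS5 signals, a linear intensity scale that cannot be compared between probe sets. Array medians lay between 60.2 and 88.3, with the number of arrays limiting precision. All 8 fibroblast markers were high, with median signals of at least 1921, whereas 10 of 11 measured markers of macrophages, epithelium and endothelium had medians under 300, the exception being Cd14 at 881. Because every array is scaled to 1 mean, a signal is a share of the measured RNA, and less RNA per cell and fewer expressing cells cannot be told apart. Differences are given as log2 of signal plus 13.6, with the standard error (SE) and a Benjamini-Hochberg adjusted p from limma, and only a gene whose adjusted p was under 0.05 is described as having risen or fallen. The experiment number paired the samples, so beside each count of members the count with the experiment as a block is given, with the members called only with it. No member's call was lost with the block.

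Cells adjust these genes together. When an amino acid runs short, uncharged transfer RNA activates the kinase GCN2, which phosphorylates the initiation factor eIF2. General translation slows, but the mRNA of the transcription factor ATF4 is translated more, and ATF4 binds composite CCAAT enhancer-binding protein and ATF response elements in genes for synthesis, uptake and charging of amino acids. Endoplasmic reticulum stress reaches the same factor through the kinase PERK. Growth factor signalling through mTORC1 and MYC also raises many of these transcripts in proliferating cells, and serine and one-carbon metabolism feeds the nucleotide synthesis that S phase needs.

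Promoter windows, 250 bases before to 50 after the annotated start, were available from RefSeq (mouse build GRCm38.p6) for 31 of the 44 members, 35 windows in all. The letters TGATGNAA, the core of the ATF4-type element, were searched on both strands. They were present in 10 of 35 member windows (28.6%), against 1304 of 32851 windows of all genes (3.97%). By role they were in 3 of 15 windows of synthesis enzymes, 2 of 9 of transporters, 5 of 10 of synthetases and 0 of 1 of a regulator. The E-box CACGTG, a palindrome that MYC and other factors recognise was present in 5 of 35 member windows (14.3%), against 7.15% of all, and its matches overlapped none of the first motif in member windows. A match describes letters in this window and is not evidence of binding. Members were picked by role, with earlier results of these data known, so their shares against all genes are descriptive and were not tested. These 5 windows are shown as examples of carriers whose genes rose with U0126 on average, and capitals mark TGATGNAA or its reverse complement.
Slc7a11, chr3:50443564-50443863, minus strand: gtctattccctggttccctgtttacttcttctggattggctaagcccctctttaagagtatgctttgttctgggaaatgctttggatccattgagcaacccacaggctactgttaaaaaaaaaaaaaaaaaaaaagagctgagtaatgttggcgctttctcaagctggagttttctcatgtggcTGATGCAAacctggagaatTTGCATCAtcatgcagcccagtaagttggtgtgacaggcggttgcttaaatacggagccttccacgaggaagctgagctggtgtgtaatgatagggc
Slc1a4, chr11:20332664-20332963, minus strand: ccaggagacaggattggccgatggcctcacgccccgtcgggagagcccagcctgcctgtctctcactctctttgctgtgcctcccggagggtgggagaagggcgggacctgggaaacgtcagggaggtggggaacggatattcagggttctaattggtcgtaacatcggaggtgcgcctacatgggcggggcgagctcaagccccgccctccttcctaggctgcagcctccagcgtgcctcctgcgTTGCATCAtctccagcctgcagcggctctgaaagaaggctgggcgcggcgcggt
Asns, chr6:7693160-7693459, minus strand: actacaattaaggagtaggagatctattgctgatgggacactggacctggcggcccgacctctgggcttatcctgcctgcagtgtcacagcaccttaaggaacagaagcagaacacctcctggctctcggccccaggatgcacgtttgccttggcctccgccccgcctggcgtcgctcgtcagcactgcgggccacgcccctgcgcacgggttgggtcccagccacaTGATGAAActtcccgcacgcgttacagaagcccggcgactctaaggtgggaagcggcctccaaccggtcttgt
Got1, chr19:43524556-43524855, minus strand: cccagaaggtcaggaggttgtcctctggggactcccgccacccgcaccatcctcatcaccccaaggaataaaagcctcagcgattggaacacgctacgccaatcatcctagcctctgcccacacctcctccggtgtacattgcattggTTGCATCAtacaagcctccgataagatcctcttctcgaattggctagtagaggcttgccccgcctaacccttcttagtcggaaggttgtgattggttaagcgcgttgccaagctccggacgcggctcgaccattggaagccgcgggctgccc
Aars, chr8:111033592-111033891, plus strand: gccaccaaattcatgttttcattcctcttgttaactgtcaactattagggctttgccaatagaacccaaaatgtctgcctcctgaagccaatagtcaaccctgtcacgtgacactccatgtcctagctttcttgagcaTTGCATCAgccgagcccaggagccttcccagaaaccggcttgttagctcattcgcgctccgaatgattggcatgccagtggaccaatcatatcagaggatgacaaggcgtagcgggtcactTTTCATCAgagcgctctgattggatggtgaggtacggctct
The Slc7a11 window holds 2 copies, at bases -66 to -59 on the gene's own strand and at -47 to -40 on the opposite strand, counted from the start site as 0. Aars also holds 2 copies, at -112 to -105 and at 9 to 16, whereas Asns has 1 at -23 to -16, Got1 1 at -102 to -95 and Slc1a4 1 across the start itself, at -4 to 3. The other carriers were Pycr1, Gars, Tars, Iars and Yars. Of the 9 measured carriers, 7 rose in the average U0126 comparison, 0 fell and 2 did not pass, where 11.7% of all genes rose and 22% were called in either direction. Of the 20 measured members with a window but without the motif, 10 rose, 1 fell and 9 did not pass. With the experiment as a block 8 carriers rose and 0 fell, and 12 of the others rose and 2 fell, against 30.6% of all genes called. The carriers were not tested against the others.

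The U0126 comparison sets cells given FGF and U0126 against cells given FGF alone, and its average takes the 3 times with 2 arrays on each side. Across 4, 7 and 12 h, 24 of the 42 members rose and 2 fell, where 11.7% of all genes rose and 22% moved in either direction. The median member difference was 0.42, against 0.01 for all genes. Transporters had the highest median of the 3 roles, 0.69, with 6 of 10 risen and 0 fallen. Synthesis enzymes followed at 0.49, with 8 of 14 risen and 1 fallen, and synthetases at 0.34, with 8 of 16 risen and 1 fallen. Both regulators rose. Gpt2 and Cth led the enzymes at 2.95-fold and 2.86-fold, Slc7a11 and Slc3a2 the transporters, and Aars the synthetases. The enzyme that fell was Shmt1 and the synthetase was Hars. Leaving out each of the 12 arrays in turn kept 25 of the 26 calls, the exception being Sesn2. With the experiment as a block, Shmt2, Slc7a1 and Iars also rose and Slc1a5 and Qars also fell, against 30.6% of all genes called.

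**Figure D1:**
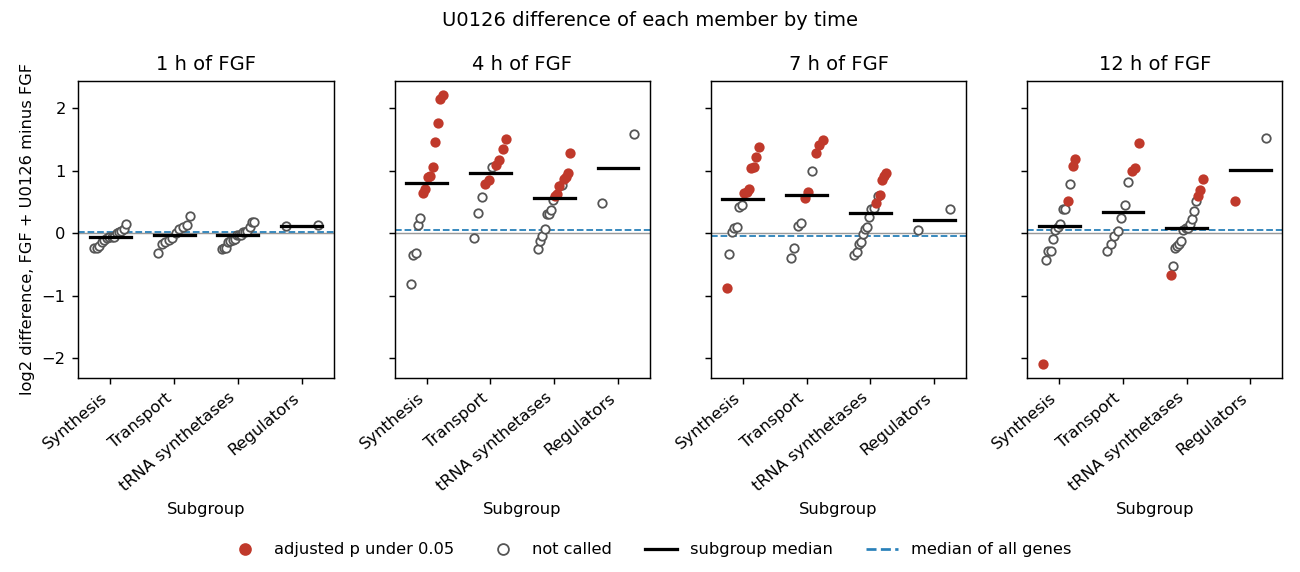
Log2 difference between FGF with U0126 and FGF alone (y axis) by role (x axis, regulators last), in a panel per time of FGF (1, 4, 7 and 12 h). Each point is a measured member, filled where its adjusted p was under 0.05. Points lie mostly above 0 at 4 h in each role, with medians of 0.81 for synthesis, 0.96 for transport and 0.57 for synthetases, and fewer do at 12 h.

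The difference was broadest at the earliest of the 3 times. At 4 h 22 members rose and 0 fell, against 5.93% of all genes called in either direction and 3.2% risen. With the block Slc6a9, Eif4ebp1, Sesn2, Iars and Lars also rose and Glul fell, 27 and 1 in all, against 13%. At 7 h 17 rose and 1 fell, against 3.03% of all genes risen and 6.07% called either way, and with the block Phgdh, Shmt2, Slc6a9, Eif4ebp1, Nars and Sars made it 23 risen and 1 fallen, against 12.5%. At 12 h 10 rose and 2 fell, against 6.26% and 12%, and with the experiment as a block 16 rose and 5 fell, against 20.6% of all genes. The additions were Asns, Aldh18a1, Slc6a9, Sesn2, Wars and Lars as higher and Psat1, Shmt2 and Hars as lower. Medians at 4, 7 and 12 h were 0.81, 0.55 and 0.12 for synthesis enzymes, 0.96, 0.61 and 0.35 for transporters, and 0.57, 0.33 and 0.09 for synthetases. Of the members that rose, 8 did so at all 3 times: Gpt2, Got1, Cth, Slc7a11, Slc3a2, Slc1a4, Aars and Eprs. A further 8 rose at 2 times and 9 at 1 time. The share of all genes that rose as often was not counted, so these 3 counts have no background. Single-time calls rest on 2 arrays against 2. Leaving out 1 array left 1 in its group, and fewer of all genes were also called in each such fit. When arrays were left out in turn, 12 of 22 calls held at 4 h, 7 of 18 at 7 h and 6 of 12 at 12 h. The count at 4 h was 13 without FGF replicate 1. The count at 7 h was 8 without U0126 replicate 1, 11 without U0126 replicate 2 and 9 without FGF replicate 1, and at 12 h it was 7 without any 1 of the 4 arrays.

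**Figure D2:**
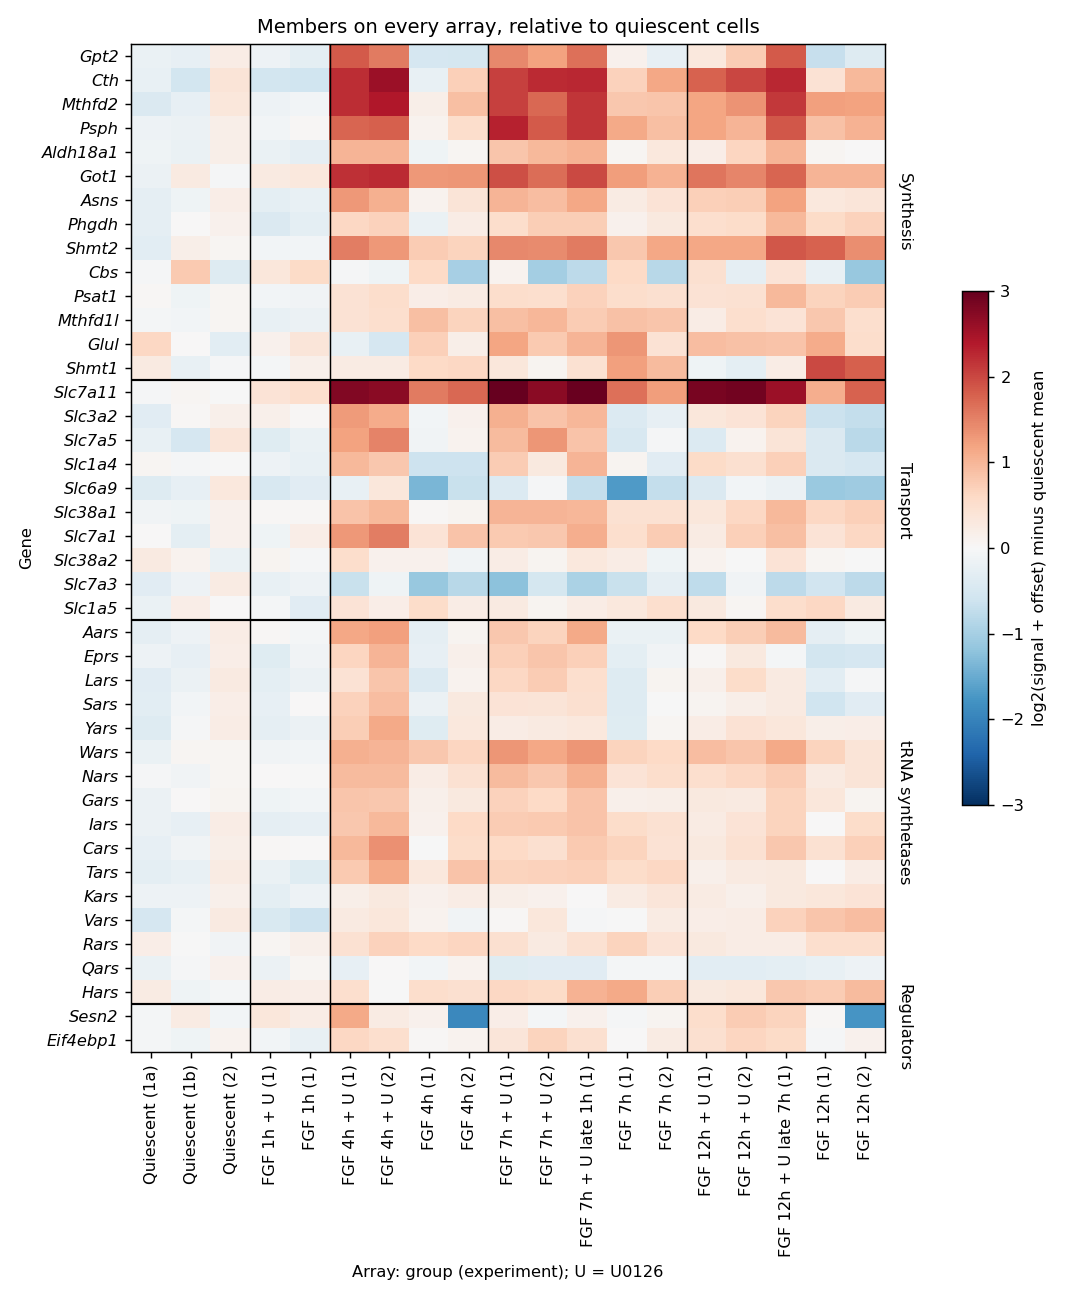
Log2 signal of each measured member (rows, grouped by role) on every array (columns, grouped by treatment and time) relative to the mean of the quiescent arrays. In the FGF and U0126 columns at 4 and 7 h most rows are above the quiescent level, and Shmt1 stands out among the enzymes by being highest with FGF alone at 12 h.

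Enzymes that make nonessential amino acids showed the largest single differences. Gpt2, the mitochondrial alanine aminotransferase, had signals of 3227 and 2651 with FGF and U0126 at 4 h against 620.1 and 613 with FGF alone, 2466 and 2069 against 982 and 750.1 at 7 h, and 1119.7 and 1526 against 552 and 675 at 12 h. Late U0126 gave 2857 at 7 h and 3204 at 12 h, 1 h of FGF gave 799.8 with U0126 and 724 without, and quiescence gave 769.5, 747 and 1049. All 6 arrays with U0126 from the start lay above all 6 with FGF alone, and the late additions lay within the range of the 4 h arrays with U0126. Averaged over the 3 times it was higher by 1.56 ± 0.12, a 2.95-fold higher signal (adjusted p = 2.4e-07), and the difference at 4 h was 2.22 ± 0.20. FGF alone left Gpt2 near its quiescent level, with differences of -0.52, -0.05 and -0.54 at 4, 7 and 12 h that did not pass; with the block the last did (adjusted p = 0.033).

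Cth, the cystathionine gamma-lyase that releases cysteine in transsulfuration, read 2427 and 3112 at 4 h, 2155 and 2448 at 7 h and 1762 and 2098 at 12 h with FGF and U0126, against 437 and 849.7, 828 and 1155 and 690.1 and 1021 at those times with FGF alone. Elsewhere its signal was 2522 and 2497 with U0126 added at 1 h and at 7 h, 344 at 1 h with U0126 against 334 without, and 438, 343 and 672 in quiescent cells. Every U0126 array from 4 h on exceeded every array with FGF alone. Its average difference was 1.52 ± 0.18 (adjusted p = 1.7e-05). Experiment 2 read higher than experiment 1 with both treatments at each of these times. Cth with FGF alone was 0.92 ± 0.30 above quiescence at 7 h, which passed only with the block (adjusted p = 0.063, and 0.00034 with it). Cbs, which makes the cystathionine that Cth cleaves, ranged from 38.1 to 183.8 across all arrays, partly under 45.2, the 40th percentile of all signals, and differed by 0.19 ± 0.34.

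The mitochondrial folate enzyme Mthfd2, which oxidises one-carbon units in proliferating cells, had 4631 and 5215 with FGF and U0126 at 4 h against 1117 and 1838 with FGF alone, 4089 and 3287 against 1731 and 1759 at 7 h, and 2238 and 2532 against 2332 and 2269.9 at 12 h. After U0126 at 1 h or 7 h Mthfd2 had 4399 at 7 h and 4289 at 12 h, on the 1 h arrays 881 with U0126 and 927 without, and in quiescence 722, 825 and 1252. The groups were separate at 4 and 7 h and overlapped at 12 h. The difference was 1.77 ± 0.23 at 4 h and 1.07 ± 0.23 at 7 h, but 0.05 ± 0.23 at 12 h (adjusted p = 0.94). FGF alone meanwhile raised Mthfd2 over quiescence, by 0.82 ± 0.23 at 7 h and 1.22 ± 0.23 at 12 h.

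Got1, the cytosolic aspartate aminotransferase, had signals of 6004 and 6196 at 4 h, 5038 and 4228 at 7 h and 4002 and 3647 at 12 h with FGF and U0126, against 3214 and 3288, 3132 and 2719 and 2674 and 2657 at those times with FGF alone. With U0126 added late it reached 5163 at 7 h and 4394 at 12 h; it read 1571 and 1637 on the 1 h arrays with and without U0126, and 1151, 1567 and 1267 on the quiescent arrays. Both treatments stood above quiescence from 4 h on, and the U0126 arrays stood above those with FGF alone at these 3 times. The average U0126 difference was 0.69 ± 0.07 (adjusted p = 7.2e-06). FGF alone raised Got1 by 1.31 ± 0.13 at 4 h, 1.15 ± 0.13 at 7 h and 1.02 ± 0.13 at 12 h.

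Shmt1 and Shmt2 convert serine to glycine and yield one-carbon units, in the cytosol and in mitochondria. For Shmt1 the signals were 347 and 345 with FGF and U0126 at 4 h against 441 and 449.8 with FGF alone, 371 and 305 against 690.2 and 570.1 at 7 h, and 264 and 231 against 1169 and 1033 at 12 h. The late additions gave 400.1 at 7 h and 335 at 12 h, the 1 h arrays 274 with U0126 and 319 without it, and the quiescent arrays 349.8, 245 and 282. Shmt1 was the 1 enzyme of 14 that fell on average: all 6 U0126 arrays lay under all 6 with FGF alone, and the gap widened with time. The difference was -0.35 ± 0.18 at 4 h, which did not pass, -0.87 ± 0.18 at 7 h and -2.10 ± 0.18 at 12 h (adjusted p = 2.7e-06). Over quiescence, FGF alone raised Shmt1 by 1.09 ± 0.18 at 7 h and by 1.88 ± 0.18 at 12 h.

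Shmt2 had 3168 and 2694 at 4 h, 2969.6 and 2912 at 7 h and 2418 and 2426 at 12 h with FGF and U0126, against 1825 and 1731, 1903 and 2417 and 3705 and 2876 at those times with FGF alone. Late U0126 gave 3217 at 7 h and 3942 at 12 h, 1 h of FGF gave 1015 with U0126 and 1013 without, and quiescence gave 867, 1213 and 1132. The U0126 arrays were the higher ones at 4 and 7 h and the lower ones at 12 h. The difference passed at 4 h, at 0.71 ± 0.15, while 0.45 ± 0.15 at 7 h and -0.43 ± 0.15 at 12 h did so only with the block (0.037 and 0.033, against adjusted p of 0.12 and 0.094 without it). FGF alone raised Shmt2 by 0.72 ± 0.15, 0.98 ± 0.15 and 1.59 ± 0.15 at 4, 7 and 12 h.

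The serine pathway itself was uneven. Psph, its last step, rose with U0126 by 0.88 ± 0.11 on average, and Phgdh, its first, by 0.32 ± 0.09 (adjusted p = 0.013, and 0.054 without a variance trend). Psat1, the step between them, averaged -0.00 ± 0.06 over differences of opposite sign, 0.25 ± 0.11 at 4 h, 0.02 ± 0.11 at 7 h and -0.28 ± 0.11 at 12 h. At 12 h its signals were 10532 and 10771 with U0126 against 12522 and 13390 with FGF alone, a fall that passed only with the block (adjusted p = 0.049, and 0.12 without it). Asns, which makes asparagine from aspartate, rose by 0.65 ± 0.09, and Aldh18a1, which makes the precursor of proline and ornithine, by 0.72 ± 0.09. Mthfd1l, a mitochondrial enzyme that releases formate, differed by -0.17 ± 0.08 and Glul, the glutamine synthetase, by -0.20 ± 0.17. Neither of them passed, and Glul at 4 h passed as lower only with the block (-0.81 ± 0.30, adjusted p = 0.15, and 0.0029 with it).

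**Figure D3:**
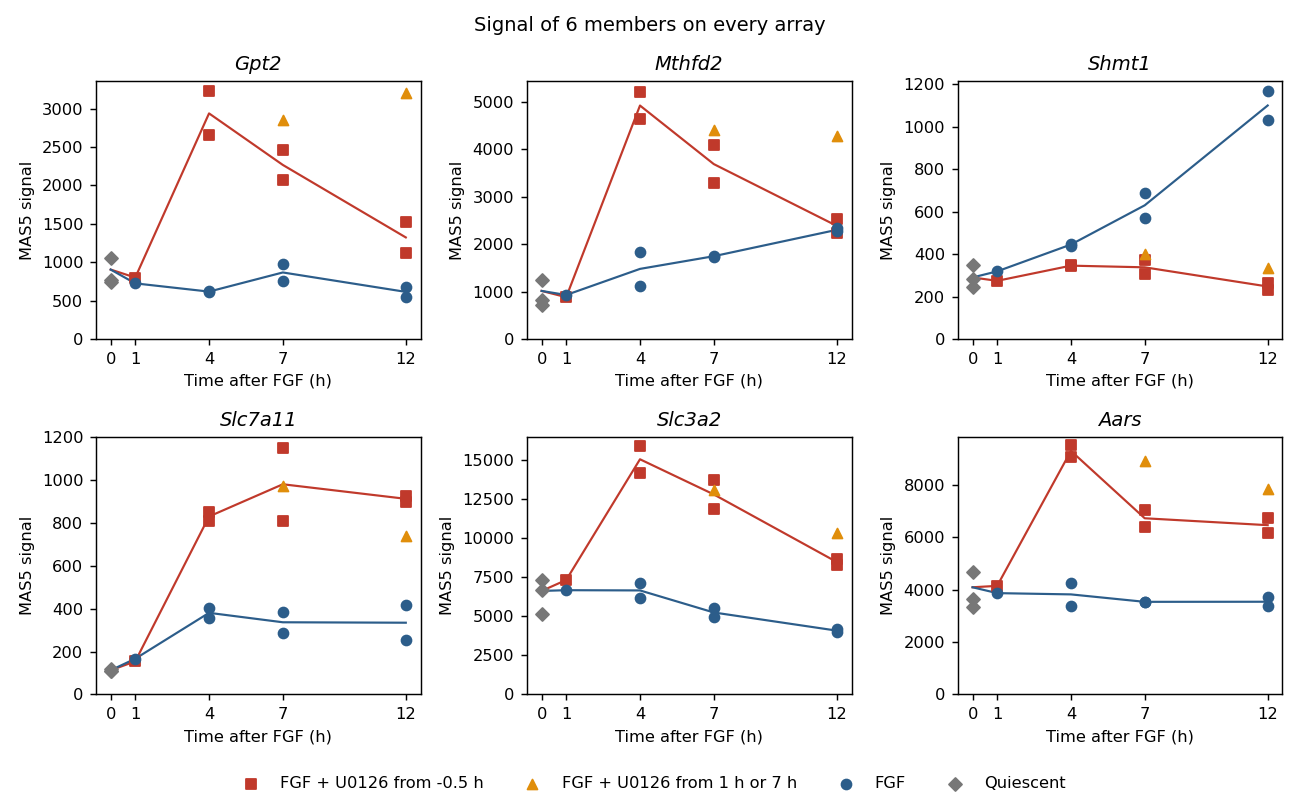
Signal (y axis, linear from 0) of 6 members against hours of FGF (x axis). Each array is a point, for FGF with U0126, U0126 added late, FGF alone and quiescent cells. Lines join group means from the quiescent mean at 0 h, except for the late additions. Gpt2 and Slc7a11 with U0126 stay above FGF alone at 4, 7 and 12 h, whereas Shmt1 lies below it and the gap is largest at 12 h.

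Among transporters, the subunits of heteromeric exchangers led. Slc7a11, the light chain that takes up cystine in exchange for glutamate, had signals of 849.9 and 809 with FGF and U0126 at 4 h against 357 and 404 with FGF alone, 1149.9 and 809.5 against 387 and 287 at 7 h, and 899 and 925 against 254 and 415 at 12 h. Elsewhere its signal was 973 and 738 with U0126 added at 1 h and at 7 h, 154 at 1 h with U0126 against 167 without, and 109.7, 119 and 112 in quiescent cells. It was lowest in quiescent cells, intermediate with FGF alone and highest with FGF and U0126, with no overlap between these levels from 4 h on. The average U0126 difference was 1.35 ± 0.14 (adjusted p = 4.7e-06), and FGF alone exceeded quiescence by 1.64 ± 0.24, 1.46 ± 0.24 and 1.42 ± 0.24 at 4, 7 and 12 h. With FGF and U0126 the difference from quiescence was 2.95 ± 0.24 at 7 h.

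Slc3a2, the heavy chain that carries Slc7a11, Slc7a5 and related light chains to the membrane, read 15896 and 14187 at 4 h, 13712 and 11877 at 7 h and 8298 and 8649 at 12 h with FGF and U0126, against 6177 and 7132, 4938 and 5551 and 4202 and 3966 at those times with FGF alone. After U0126 at 1 h or 7 h Slc3a2 had 13094 at 7 h and 10344 at 12 h, on the 1 h arrays 7322 with U0126 and 6669.5 without, and in quiescence 5163, 6684 and 7319.9. Every array with U0126 from 4 h on was above every other array of this gene. On average the difference was 1.17 ± 0.08 (adjusted p = 9.8e-08), and it passed at each of the 3 times. With FGF alone Slc3a2 was close to quiescence at 4 h (0.02 ± 0.14) and had fallen by 12 h (-0.68 ± 0.14, adjusted p = 0.0028). That fall did not hold in every fit when arrays were left out in turn.

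Slc7a5, the light chain for large neutral amino acids such as leucine, had 5031 and 6101 with FGF and U0126 at 4 h against 2006 and 2319 with FGF alone, 4161 and 5451 against 1533 and 2087 at 7 h, and 1605 and 2299.8 against 1587 and 1228 at 12 h. With U0126 added late it reached 3901 at 7 h and 2834 at 12 h; it read 1674 and 1881 on the 1 h arrays with and without U0126, and 1859, 1526 and 2754 on the quiescent arrays. The U0126 arrays were clearly higher at 4 and 7 h, and at 12 h the lower of them, 1605, was next to the higher FGF array, 1587. The difference was 1.36 ± 0.24 at 4 h, 1.41 ± 0.24 at 7 h and 0.46 ± 0.24 at 12 h, where it did not pass (adjusted p = 0.29).

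The alanine, serine and cysteine transporter Slc1a4 had signals of 3047 and 2726 at 4 h, 2657 and 1905 at 7 h and 2312 and 2173 at 12 h with FGF and U0126, against 1013 and 999, 1649 and 1216 and 1142 and 1093 at those times with FGF alone. The late additions gave 3154 at 7 h and 2567 at 12 h, the 1 h arrays 1399 with U0126 and 1337 without it, and the quiescent arrays 1625, 1522 and 1534. FGF alone left it under or near the quiescent level, and all U0126 arrays from 4 h on were above both. The average U0126 difference was 1.05 ± 0.10 (adjusted p = 2e-06). With FGF alone Slc1a4 fell at 4 h (-0.62 ± 0.17, adjusted p = 0.035). This call did not hold in every leave-one-out fit. It was also lost after 75th percentile scaling, when the trend in variance was dropped, and for the most variable probe sets. In a limma fit of all kept probe sets, another Slc1a4 set was also lower (-0.57, adjusted p = 0.039). The remaining set did not pass (-0.09, adjusted p = 0.83).

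The glycine transporter Slc6a9 read 2116 and 3129 with FGF and U0126 at 4 h against 948 and 1569 with FGF alone, 1879.5 and 2426 against 761 and 1498 at 7 h, and 1822 and 2327 against 1139 and 1181 at 12 h. Late U0126 gave 1519 at 7 h and 2210.2 at 12 h, 1 h of FGF gave 1764 with U0126 and 1943 without, and quiescence gave 1891, 2099 and 3094. At 4, 7 and 12 h, though not at 1 h, U0126 arrays were above FGF arrays, but with both they stayed within or under the quiescent range except on 1 array at 4 h. The average difference was 0.96 ± 0.18 (adjusted p = 0.0012). At single times 1.07 ± 0.31, 0.99 ± 0.31 and 0.82 ± 0.31 passed only with the block (adjusted p of 0.06, 0.084 and 0.11 without it). With FGF alone Slc6a9 fell against quiescence at 7 h (-1.21 ± 0.31) and 12 h (-1.09 ± 0.31). Neither fall held in every fit when arrays were left out in turn. The -1.02 ± 0.31 at 4 h passed only with the block (adjusted p = 0.056 without it).

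Slc38a1, a sodium-coupled glutamine transporter, had 3588 and 3849.6 at 4 h, 4006 and 3990.1 at 7 h and 2513 and 3039 at 12 h with FGF and U0126, against 2028 and 2075, 2688 and 2712 and 3022 and 3236 at those times with FGF alone. Elsewhere its signal was 3909.7 and 3878 with U0126 added at 1 h and at 7 h, 2012 at 1 h with U0126 against 2001 without, and 1828, 1788 and 2141 in quiescent cells. U0126 arrays were higher at 4 and 7 h and overlapped those with FGF alone at 12 h, as with Mthfd2. Its differences were 0.85 ± 0.13, 0.56 ± 0.13 and -0.18 ± 0.13, and the average of 0.41 ± 0.08 passed (adjusted p = 0.001) except with the probe set of highest variance (adjusted p = 0.055). FGF alone raised Slc38a1 by 0.45 ± 0.13 at 7 h and 0.66 ± 0.13 at 12 h. The other transporters did not pass on average: Slc7a1 and Slc7a3, which carry arginine and lysine, at 0.30 ± 0.11 and 0.14 ± 0.20, the glutamine exchanger Slc1a5 at -0.20 ± 0.09 and the neutral amino acid transporter Slc38a2 at 0.16 ± 0.10. Slc7a1 did rise at 4 h, by 0.79 ± 0.19 (adjusted p = 0.019). Slc7a3 signals ran only from 65.9 to 208.2 across all arrays, so its falls called only with the block, given below, rest on low signals.

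Synthetases attach each amino acid to its transfer RNA, and their differences with U0126 were smaller. Aars, for alanine, had signals of 9044 and 9518 with FGF and U0126 at 4 h against 3369.8 and 4258 with FGF alone, 7039 and 6390.1 against 3538 and 3522 at 7 h, and 6163 and 6739 against 3367 and 3700.4 at 12 h. After U0126 at 1 h or 7 h Aars had 8899.9 at 7 h and 7846 at 12 h, on the 1 h arrays 4139 with U0126 and 3862 without, and in quiescence 3347, 3633 and 4681. All U0126 arrays from 4 h on were above all other arrays of this gene, while FGF alone stayed within the quiescent range. The average difference was 1.03 ± 0.09 (adjusted p = 8.4e-07), and against quiescence FGF alone differed by -0.09 ± 0.15, -0.19 ± 0.15 and -0.19 ± 0.15, none of which passed.

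Eprs, which charges both glutamate and proline, read 4349 and 5634 at 4 h, 4524 and 4917 at 7 h and 2856 and 3380.3 at 12 h with FGF and U0126, against 2348 and 3101, 2257 and 2562 and 1872 and 1966 at those times with FGF alone. With U0126 added late it reached 4551 at 7 h and 2659 at 12 h; it read 2137 and 2562 on the 1 h arrays with and without U0126, and 2492, 2346 and 3176 on the quiescent arrays. From 4 h on U0126 arrays were above FGF arrays at each time, and of these times 12 h had the lowest arrays in both treatments. For Eprs the average difference was 0.84 ± 0.10 (adjusted p = 2.5e-05). Against quiescence, Eprs fell with FGF alone at 12 h (-0.53 ± 0.18, adjusted p = 0.048). This call did not hold in every fit when arrays were left out in turn.

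For Lars, the leucine enzyme, signals were 3969.9 and 5181 with FGF and U0126 at 4 h against 2208 and 3146 with FGF alone, 4505 and 5001 against 2241 and 3092 at 7 h, and 3245 and 4316 against 2365 and 2875 at 12 h. The late additions gave 4134 at 7 h and 3524 at 12 h, the 1 h arrays 2369.7 with U0126 and 2574 without it, and the quiescent arrays 2302, 2581 and 3515. All 6 U0126 arrays exceeded all 6 with FGF alone, and experiment 2 read higher than experiment 1 in each of these groups. The mean of the 3 differences was 0.72 ± 0.13 (adjusted p = 0.001). Of single times, 7 h passed (0.85 ± 0.23), and 4 and 12 h did so only with the block (adjusted p of 0.06 and 0.18 without it).

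Sars, the serine enzyme, had 8025 and 9475 at 4 h, 6623 and 6526 at 7 h and 5292 and 5648 at 12 h with FGF and U0126, against 4394 and 6122, 3808 and 4944 and 3289 and 3952 at those times with FGF alone. Late U0126 gave 6969.5 at 7 h and 5970 at 12 h, 1 h of FGF gave 4217 with U0126 and 4986 without, and quiescence gave 3968, 4724 and 5720.2. U0126 arrays were the higher ones at 4, 7 and 12 h and the lower one at 1 h, and the largest signals were at 4 h with U0126. Sars differed by 0.65 ± 0.11 on average (adjusted p = 0.00042).

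Hars, the histidine enzyme, went the other way, with 4019 and 2774 with FGF and U0126 at 4 h against 4038 and 3943 with FGF alone, 4302 and 4213 against 6216 and 4724 at 7 h, and 3471 and 3575 against 4757 and 5469 at 12 h. Elsewhere its signal was 5845 and 4939.7 with U0126 added at 1 h and at 7 h, 3278 at 1 h with U0126 against 3235 without, and 3322, 2568 and 2709 in quiescent cells. Groups overlapped at 4 h, and at 7 and 12 h both U0126 arrays were under both FGF arrays. The average difference was -0.38 ± 0.10 (adjusted p = 0.011, and 0.05 without a variance trend), while no single time passed except 12 h with the block (adjusted p = 0.055, and 0.011 with it). FGF alone raised Hars by 0.94 ± 0.17 at 7 h and 0.86 ± 0.17 at 12 h. In a limma fit of all kept probe sets, the other Hars probe set gave 0.45 and 0.32 at these times. Neither passed (adjusted p of 0.17 and 0.29).

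Vars, the valine enzyme, had 940.3 and 996 at 4 h, 802 and 997 at 7 h and 904 and 910.3 at 12 h with FGF and U0126, against 847 and 721, 782 and 938 and 1415 and 1498 at those times with FGF alone. After U0126 at 1 h or 7 h Vars had 762 at 7 h and 1263 at 12 h, on the 1 h arrays 571 with U0126 and 505 without, and in quiescence 553, 751 and 951. The highest arrays were those with FGF alone at 12 h, with both U0126 arrays beneath them. The 12 h difference was -0.67 ± 0.19 (adjusted p = 0.029), while the average, -0.10 ± 0.11, did not pass. FGF alone raised Vars at 12 h by 0.88 ± 0.19.

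Wars, the tryptophan enzyme, read 2052 and 1990.4 with FGF and U0126 at 4 h against 1729 and 1541 with FGF alone, 2462 and 2185 against 1564 and 1471 at 7 h, and 1855 and 1748 against 1549.6 and 1272 at 12 h. With U0126 added late it reached 2449.8 at 7 h and 2163 at 12 h; it read 911 and 926 on the 1 h arrays with and without U0126, and 853, 1014 and 1019.7 on the quiescent arrays. Like Slc7a11, it was lowest in quiescence, higher with FGF alone and highest with U0126, on all arrays from 4 h on. The average U0126 difference was 0.42 ± 0.08 (adjusted p = 0.0013), and FGF alone raised Wars by 0.74 ± 0.14, 0.63 ± 0.14 and 0.52 ± 0.14.

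Rars, the arginine enzyme, had 5578 and 6489 at 4 h, 5688 and 4877 at 7 h and 4963 and 4741 at 12 h with FGF and U0126, against 6155 and 6299.8, 6472 and 5406 and 5740.3 and 5752 at those times with FGF alone. The late additions gave 5524 at 7 h and 4753 at 12 h, the 1 h arrays 4234 with U0126 and 4496 without it, and the quiescent arrays 4641, 4033 and 3783. The U0126 and FGF arrays overlapped at 4 and 7 h, and the average difference of -0.15 ± 0.08 did not pass. FGF alone raised Rars by 0.62 ± 0.13, 0.55 ± 0.13 and 0.50 ± 0.13.

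Of the other synthetases, Gars, Nars and Yars, for glycine, asparagine and tyrosine, rose with U0126 on average, by 0.39 ± 0.07, 0.42 ± 0.07 and 0.50 ± 0.13. The Yars call was lost without a variance trend (adjusted p = 0.051). Iars, Tars, Cars, Kars and Qars, for isoleucine, threonine, cysteine, lysine and glutamine, differed by between -0.19 and 0.28 and did not pass, although Cars rose at 4 h by 0.90 ± 0.20.

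Both regulators restrain translation or mTORC1. Eif4ebp1, which encodes the repressor that binds the cap-binding factor eIF4E, had signals of 10341 and 9458 at 4 h, 8569 and 10658 at 7 h and 9328 and 10414 at 12 h with FGF and U0126, against 6905 and 7211, 6740.1 and 7936 and 6517 and 7314 at those times with FGF alone. Late U0126 gave 9309 at 7 h and 9900.3 at 12 h, 1 h of FGF gave 6294 with U0126 and 5731 without, and quiescence gave 6402, 6122 and 7164. All 6 U0126 arrays were above all 6 with FGF alone, and FGF alone stayed near quiescence. The average difference was 0.46 ± 0.08 (adjusted p = 0.00078), and it did not pass with the probe set of highest variance (adjusted p = 0.068). At single times it passed at 12 h, and at 4 and 7 h only with the block.

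Sesn2, a leucine sensor that inhibits mTORC1, had 762 and 405 with FGF and U0126 at 4 h against 372 and 78.9 with FGF alone, 391 and 329 against 333 and 362 at 7 h, and 497 and 592 against 350.1 and 90.0 at 12 h. Elsewhere its signal was 373 and 545 with U0126 added at 1 h and at 7 h, 435 at 1 h with U0126 against 402 without, and 326, 406 and 319 in quiescent cells. The groups overlapped at 7 h, and the lowest arrays were replicate 2 of FGF alone at 4 h and at 12 h. The average difference was 1.05 ± 0.33 (adjusted p = 0.031), but 0.71 without FGF replicate 2 at 4 h (adjusted p = 0.086) and 0.75 without FGF replicate 2 at 12 h (adjusted p = 0.1), and leaving out either FGF array at 7 h, or any U0126 array except replicate 2 at 4 h, also lost the call. Single differences of 1.59 ± 0.57 at 4 h and 1.52 ± 0.57 at 12 h passed only with the block (adjusted p of 0.13 and 0.11 without it).

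FGF alone against quiescence moved fewer members at first and gave the roles a different order. At 1 h, on 1 array, none of the 42 passed, with 0.48% of all genes called and 1 member under an unadjusted 0.05. At 4 h 7 rose and 1 fell, against 3.92% of all genes risen and 8.9% called either way, and with the block 12 rose and 3 fell, against 17.7%, with Shmt1, Slc1a5, Nars, Tars and Hars added as higher and Slc7a3 and Slc6a9 as lower. At 7 h 14 rose and 1 fell, against 5.45% risen and 12.6% either way, and with the block Cth, Glul, Slc1a5, Tars, Iars and Cars also rose, 20 and 1 in all, against 21.6%. At 12 h 14 rose and 3 fell, against 8.55% and 20.3%, and with the block 21 rose and 7 fell, against 30% of all genes. Called only with the block at 12 h were Cth, Glul, Slc7a1, Slc1a5, Nars, Cars and Kars as higher and Gpt2, Slc7a5, Slc1a4 and Sars as lower. At 12 h synthesis enzymes led, with 8 of 14 risen, 0 fallen and a median of 0.71, whereas transporters had 2 risen and 2 fallen of 10 and a median of -0.22, and synthetases 4 risen and 1 fallen of 16 and a median of 0.24. The median of all genes was -0.01. The enzymes that rose at 12 h were Shmt1, Shmt2, Mthfd2, Got1, Psph (0.96 ± 0.18), Psat1 (0.72 ± 0.11), Mthfd1l (0.65 ± 0.15) and Phgdh (0.63 ± 0.15). Members that fell at 12 h were Slc3a2, Slc6a9 and Eprs. None of these 3 calls held in every leave-one-out fit, and for each gene quiescent replicate 2 read highest of the quiescent arrays. In leave-one-out fits 4 of 8 calls held at 4 h, 7 of 15 at 7 h and 10 of 17 at 12 h, and the count was 5 without FGF replicate 2 at 4 h and 7 without FGF replicate 1 at 7 h. Fewer of all genes were also called in each fit without an FGF array. The comparisons with FGF alone share its arrays with the U0126 comparisons, so each is described by its own values.

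Set beside each other, the direction of the U0126 and FGF differences varied among members. Of the 24 members that rose with U0126 on average, 7 had also risen with FGF alone at 12 h, 3 had fallen and 14 had not passed. The 3 falls did not hold in every leave-one-out fit. At 12 h of FGF alone 8.55% of all genes rose and 20.3% were called either way. How many of all genes were called in both comparisons was not counted. The split rests on 1 probe set per gene. In a limma fit of all kept probe sets, other sets of Asns (0.52, adjusted p = 0.012) and Sars (-0.67, adjusted p = 0.0081) were called at 12 h of FGF alone. Another Eprs set was also lower (-0.76, adjusted p = 0.021), whereas the other Slc6a9 set did not pass (-0.68, adjusted p = 0.13). Both members that fell with U0126, Shmt1 and Hars, had risen with FGF alone. Of the 16 not called for U0126, 5 had risen with FGF alone: Psat1, Shmt2, Mthfd1l, Vars and Rars.

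**Figure D4:**
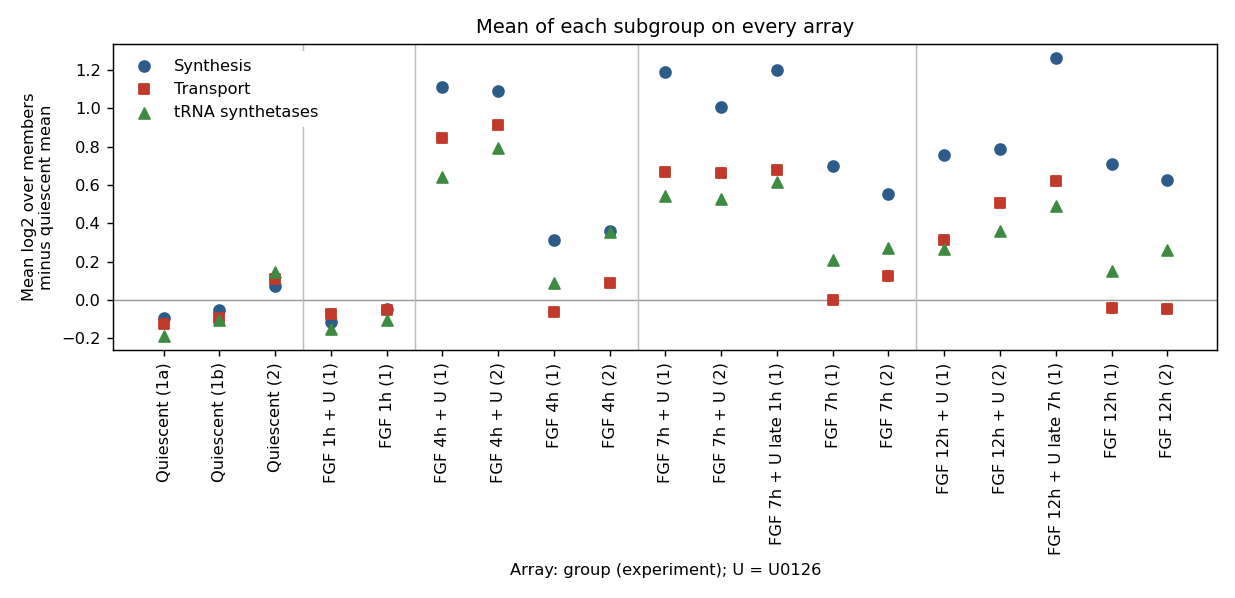
Mean over the members of each role of log2 signal minus the quiescent mean (y axis) on each array (x axis, by group and experiment). Synthesis enzymes reach 1.09 to 1.11 on the 2 arrays with FGF and U0126 at 4 h, against 0.31 to 0.36 with FGF alone, and transporters 0.85 to 0.92 against -0.06 to 0.09.

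Averaged over their members, the roles followed different courses. Relative to quiescence, synthesis enzymes averaged 1.10, 1.10 and 0.77 with FGF and U0126 at 4, 7 and 12 h, against 0.33, 0.63 and 0.67 with FGF alone. Transporters averaged 0.88, 0.66 and 0.41 with U0126, against 0.01, 0.06 and -0.05 with FGF alone. Synthetases averaged 0.72, 0.53 and 0.31 with U0126, against 0.22, 0.24 and 0.21 with FGF alone. With FGF alone the enzyme mean was higher at 7 h than at 4 h. The arrays at 7 and 12 h overlapped (0.55 to 0.70 and 0.63 to 0.71). At 12 h against 7 h, 6 enzymes were higher and 8 lower, and the enzyme median over quiescence was 0.84 at 7 h and 0.71 at 12 h. The transporter mean with FGF alone stayed near its quiescent level. With U0126 the means of all 3 roles were lower at 12 h than at 4 h. These means describe the chosen members and carry no test.

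Cells given FGF and U0126 were also set directly against quiescent cells. At 1 h none of the 42 members passed, with 0.113% of all genes called, and 1 member had an unadjusted p under 0.05. At 4 h 28 members rose and 0 fell, against 3.31% of all genes risen and 7.38% called either way, and with the block Mthfd1l, Slc38a2 and Lars made it 31 risen and 0 fallen, against 15% called. At 7 h 25 rose and 0 fell, against 3.73% and 9.07%. With the block at 7 h 31 rose and 2 fell, against 18.5%, with Glul, Slc1a4, Sars, Lars, Cars and Rars added as higher and Slc7a3 and Qars as lower. At 12 h 13 rose and 0 fell, against 2.43% and 5.42%, and with the block Phgdh, Aldh18a1, Glul, Slc7a1, Slc1a4 and Lars made it 19 risen and 0 fallen, against 14.4%. The 28 at 4 h were 10 of 14 enzymes, 6 of 10 transporters, 11 of 16 synthetases and 1 of 2 regulators, Eif4ebp1. The largest differences at 4 h were Slc7a11 at 2.74 ± 0.24, Cth at 2.40 ± 0.30, Mthfd2 at 2.31 ± 0.23 and Got1 at 2.21 ± 0.13. Psph reached 2.07 ± 0.18 at 7 h. Shmt1 was among the members that did not pass at any of these times. In leave-one-out fits 18 of 28 calls held at 4 h, 14 of 25 at 7 h and 7 of 13 at 12 h, where the count was 7 without either U0126 array.

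An F test in limma asked whether the U0126 difference itself changed over the 3 times. It passed for 5 members, against 1.03% of all genes, and for 14 with the experiment as a block, against 3.83%. The 9 added were Phgdh, Gpt2, Cth, Glul, Slc7a5, Slc7a1, Slc1a4, Cars and Vars. For Mthfd2 (1.77, 1.07 and 0.05 at 4, 7 and 12 h; adjusted p = 0.039), Psph (1.45, 1.05 and 0.15; adjusted p = 0.049) and Slc38a1 (0.85, 0.56 and -0.18; adjusted p = 0.029) the gain over FGF alone shrank. For Shmt2 (0.71, 0.45 and -0.43; adjusted p = 0.035) it turned negative, and for Shmt1 (-0.35, -0.87 and -2.10; adjusted p = 0.0073) the deficit grew. Leaving out 1 array at a time gave from 0 to 4 members, with 0 without FGF replicate 1 at 12 h. The calls of Shmt1 held in 10 of 12 such fits, Slc38a1 in 5, Shmt2 in 4, Psph in 3 and Mthfd2 in 2.

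Between the times of FGF alone few members moved. At 7 h against 4 h none of the 42 passed (0.12% of all genes; 9 members under an unadjusted 0.05), and with the block Psph and Cth rose (1.9% of all genes). At 12 h against 7 h Shmt1 rose by 0.80 ± 0.18 (adjusted p = 0.038; 1.83% of all genes), and leaving out any of the 4 arrays gave 0 calls. With the block 5 members moved, against 4.72% of all genes: Phgdh, Shmt1, Shmt2 and Vars rose and Tars fell.

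Late addition asked whether the difference appears when FGF has already acted. Each late arm had 1 array, from experiment 1, assumed to vary like the other groups. With U0126 from 1 h, 14 members rose and 0 fell against FGF alone at 7 h (1.68% of all genes risen, 3.59% called either way), and 23 rose and 1 fell with the block (7.49%). With U0126 from 7 h, 10 rose and 1 fell against FGF alone at 12 h (2.47% risen, 5.05% either way), and 22 rose and 1 fell with the block (11.3%). Called only with the block in both arms were Phgdh, Slc7a5, Slc7a1, Slc6a9, Sars and Lars. Cth, Slc38a1 and Yars were added as higher and Shmt1 as lower at 7 h, and Mthfd2, Eif4ebp1, Gars, Nars, Wars and Eprs as higher at 12 h. The highest in both arms was Gpt2, by 1.72 ± 0.25 at 7 h and 2.37 ± 0.25 at 12 h, followed among called members by Slc7a11 at 7 h (1.51 ± 0.29) and Cth at 12 h (1.56 ± 0.37). Aars rose by 1.33 ± 0.19 and 1.15 ± 0.19, Slc3a2 by 1.32 ± 0.17 and 1.34 ± 0.17 and Slc1a4 by 1.15 ± 0.21 and 1.19 ± 0.21. The calls of Gpt2, Aars, Slc3a2 and Slc1a4 held without either FGF array in both arms. Shmt1 fell at 12 h (-1.67 ± 0.22). Differences above 1 that did not pass were Cth at 7 h (1.35 ± 0.37), Slc7a5 at 7 and 12 h (1.12 ± 0.30 and 1.01 ± 0.30), each of which passed with the block, and Cbs (1.09 ± 0.72) and Sesn2 (1.52 ± 0.69) at 12 h, which did not. The count at 7 h was 8 without FGF replicate 1 and 6 without FGF replicate 2, and at 12 h 7 without either.

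Late and early U0126 were then compared at the same time of FGF. At 7 h none of the 42 members passed, nor did any gene (0%), while 3 members were under an unadjusted 0.05. At 12 h Gpt2 was higher with U0126 from 7 h than with U0126 from -0.5 h, 3204 on 1 array against 1119.7 and 1526, by 1.28 ± 0.25 (adjusted p = 0.027; 0.674% of all genes called). That call was lost without U0126 replicate 1 from -0.5 h. With the block 8 members were higher (2.25% of all genes called), adding Psat1, Phgdh, Shmt2, Mthfd2, Aldh18a1, Slc7a1 and Slc38a1. U0126 with FGF against FGF alone at 1 h, 1 array each, moved none of the 42 members (0.18% of all genes; 0 members under an unadjusted 0.05).

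Other genes of these pathways did not all move with the members. The shares of all genes for this average were 11.7% risen and 22% called either way, and 30.6% called with the block. Of 13 regulators of the ATF4 pathway, 10 rose with U0126 on average and 0 fell, with a median of 1.13, and with the block 11 rose. The largest were the stress-induced factor Atf3 (3.64 ± 0.13), the death-linked factor Ddit3 (2.96 ± 0.11), the pseudokinase Trib3 (2.70 ± 0.15) and the glutathione-degrading enzyme Chac1 (2.41 ± 0.17). Atf4 itself, named for its role and not for its size, rose by 0.63 ± 0.08. Against quiescence at 12 h of FGF alone 7 of these 13 fell and 0 rose. In that comparison 1767 of 14996 genes fell and 20.3% were called either way. With the block 9 of the 13 fell and 0 rose, against 30% of all genes called. Mitochondrial synthetases, which charge transfer RNA inside the organelle, had a median of 0.15, and 2 of 16 rose with U0126, Lars2 by 0.32 ± 0.10 and Fars2 by 0.25 ± 0.09, a share near that of all genes. With the block Nars2 and Wars2 also rose and Yars2 fell.

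Of 6 other cytosolic synthetases and partners of the multisynthetase complex, Mars1 rose by 0.49 ± 0.11 and the scaffold Aimp2 fell (-0.47 ± 0.09), as did Farsa with the block (-0.26 ± 0.10). Among 13 other enzymes of amino acid and folate metabolism 0 rose and 3 fell: Tyms, which makes thymidylate (-1.05 ± 0.19), Mthfd1, the cytosolic folate enzyme (-0.55 ± 0.08), and Ahcy, which hydrolyses S-adenosylhomocysteine (-0.30 ± 0.10). All 3 had risen with FGF alone at 12 h, where 8.55% of all genes rose. The 3 called of 13 are a share near that of all genes, and with the block Oat and Bcat2 rose and Glud1 and Mthfd2l also fell. Among 16 other transporters 2 rose and 3 fell, and the largest were the arginine transporter Slc7a2 (1.13 ± 0.08), Slc38a7 (0.79 ± 0.19), Slc38a4 (-0.72 ± 0.09) and Slc7a6 (-0.47 ± 0.07). In the list for MYC and mTORC1, Myc fell (-0.36 ± 0.09) and Flcn rose by 0.81 ± 0.15, a sign that turned with its probe set of highest variance (-0.49), and the 6 others did not pass, except Sesn3 as lower with the block.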

How the data were processed

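RNA from 19 samples was measured on Affymetrix mouse arrays, 1 array each. The deposited values are MAS5 signal intensities, a linear scale that the authors set, per the labels, to a common trimmed mean (500 without the outer 2% of values); the MAS5 version is not given in the sources used here. The arrays held 45101 probe sets, 34945 of them with 1 gene. Members and lists were chosen with earlier results of these data known.

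Log2 of signal plus 13.6, the 20th percentile, was used, which understates changes of low genes. A probe set had to exceed its array's 40th percentile on 2 or more arrays, and the one with the highest mean stood for its gene; 28 of 42 members had several, and in none were these called in opposite directions. For 5 members (Phgdh, Shmt2, Aldh18a1, Eif4ebp1, Wars) and 6 more (Shmt1, Gpt2, Slc38a1, Aars, Iars, Eprs) the probe set name marks probes that other transcripts may share. All 11 groups were fitted together in limma 3.58.1 (R 4.3.3; eBayes with a variance trend, 7 residual and 7.47 prior degrees of freedom), two-sided, adjusted over 14996 genes by Benjamini-Hochberg with 0.05 as limit. Quiescent arrays 1a and 1b were averaged.

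Experiment numbers in the labels were taken to pair the samples, since deviations of same-numbered samples correlated in all 21 pairs of groups (r from 0.127 to 0.305). Per-array values are given for up to 4 called members per role with the largest average U0126 difference, up to 4 with the largest FGF difference, and both regulators. Other genes came from lists of regulators of the ATF4 pathway, mitochondrial synthetases, other cytosolic synthetases, other enzymes, other transporters, and MYC and mTORC1 (72 of 80 tested), with up to 4 named per list. Alternatives were quantile and 75th percentile scaling, other offsets, filters and probe sets, no variance trend, 3 separate quiescent arrays, the experiment block, only the compared groups, and leaving out each array. The fit was tested on simulated data. Figures used matplotlib 3.10.9.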

Additional observations from a re-analysis of the deposited data

Results flagged for a closer look

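The U0126 difference changed between 4, 7 and 12 h for 5 members by limma's F test. The adjusted p was 0.007308 for Shmt1, which held in 10 of 11 other settings. It was 0.02902 for Slc38a1 (9 of 11), 0.03475 for Shmt2 (7 of 11), 0.03898 for Mthfd2 (9 of 11) and 0.04934 for Psph (4 of 11). Shmt1 grew more negative with time. Slc38a1, Mthfd2 and Psph were higher with U0126 at 4 and 7 h, with no call at 12 h. Shmt2 was higher at 4 h and lower, without a call, at 12 h. Groups held 2 arrays, so no sample could be tested as standing apart within its group.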

How the results depend on the processing

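Counts of called members are given per comparison. In each comparison named for these settings, fewer of all genes were also called without a variance trend, and more with the block. For FGF at 4 h against quiescence, all genes called numbered 852 without the trend and 2655 with the block, against 1335 in the main fit. Without a variance trend they were 5 and 9 for FGF against quiescence at 4 and 7 h (8 and 15 in the main fit), 9 and 6 for U0126 at 7 and 12 h (18 and 12), 16 and 7 for FGF and U0126 against quiescence at 7 and 12 h (25 and 13), 6 and 5 for the late additions at 7 and 12 h (14 and 11), 0 for FGF at 12 h against 7 h and for late against early U0126 at 12 h (1 each), and 1 for the F test by time (5). With the experiment as a replicate block, the paired fit, they were 15 and 28 for FGF at 4 and 12 h (8 and 17), 21 for U0126 at 12 h, 24 and 23 for the late additions, 2 for FGF at 7 h against 4 h (0), 5 for 12 h against 7 h, 8 for late against early U0126 at 12 h and 14 for the F test. Fits of only the compared groups gave 7 for FGF at 7 h, 0 for 12 h against 7 h and 3 for the F test. FGF at 12 h against 7 h also gave 0 with quantile normalization, 75th percentile scaling, no filter, 3 separate quiescent arrays and the probe set of highest variance. That probe set choice gave 0 for late against early U0126 at 12 h and 1 for the F test, which gave 3 without a filter. It also reversed Flcn to -0.4937 (adjusted p = 0.47). The cause of these shifts was not tested.

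Leaving out each array gave 5 to 11, 7 to 18 and 12 to 20 calls for FGF at 4, 7 and 12 h, 13 to 21, 8 to 13 and 7 for U0126 at those times, and 25 to 27 for its average. It gave 19 to 28, 17 to 28 and 7 to 14 for FGF and U0126 against quiescence, 0 for 12 h against 7 h of FGF, 6 to 8 and 7 for the late additions, 0 to 1 for late against early U0126 at 12 h, and 0 to 4 for the F test. Main values were 22, 18 and 12 for U0126 at 4, 7 and 12 h, and 26 for the average. For U0126 at these single times, fewer of all genes were also called whenever an array was left out. The average count stayed within 1.5 times under every setting run. With 1 array each, U0126 at 1 h allowed no fit of the compared groups alone.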
